A study of Mus musculus with 12 samples.

Results

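The genes described here are 60 mouse genes that act in the last part of the cell cycle, from entry into mitosis to the splitting of the daughter cells. They were given as a fixed list of names covering the G2/M transition, the kinetochore, the spindle and cytokinesis, and the rule uses no measured value, although earlier results of these data were known when the list was made. All 60 were found among the 46103 genes that remained once features that are copies of a gene had been added up, and all 60 were among the 10072 genes that reached 1 RPKM in 3 or more libraries and were tested. RPKM is the number of reads per kb of transcript, scaled to the reads of the library, so levels can be set side by side between genes. Each gene passed this filter on the 6 libraries of G0M- cells alone, and 44 passed it on the 6 libraries of G0M+ cells alone, so 16 entered through the cells in which their level was higher.

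The 12 libraries came from sorted stem and progenitor cells of C57BL/6 mice with a chronic myeloid leukemia (CML)-like disease, with 100 cells of bone marrow and spleen behind each. Bone marrow of 5FU-treated mice that carry a Cre-inducible G0 marker (G0M) in Rosa26, switched on by Vav1-Cre in blood cells, was infected with a retrovirus carrying BCR-ABL1 and GFP, and was transplanted into lethally irradiated wild-type mice together with marrow of untreated mice. G0M joins a fluorescent protein to a mutant of p27, the product of Cdkn1b, and is lost as cells leave G0. All groups were BCR-ABL1+ CD27+ KSL cells, which are Lin-, Sca1+ and c-Kit+. DP cells (G0M+) and SP cells (G0M-) came from mice given vehicle, and IMDP cells (G0M+) and IMSP cells (G0M-) from mice treated with imatinib, which blocks the kinase activity of BCR-ABL1, at 40 mg/kg once daily from day 10 after transplantation. Each group had 3 libraries. The labels do not say which mice a library came from, so the spread between libraries may be partly technical, and the gate that separates the groups is itself a readout of the cell cycle.

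Dividing cells switch on most of these genes in G2 through the factors B-MYB and FOXM1, which act with the MuvB complex, and quiescent cells keep the same genes off when MuvB joins the repressor complex DREAM. DNA elements that such promoters share are the cell cycle genes homology region, with the core TTTGAA, and the CCAAT box. Once made, cyclin B and CDK1 start mitosis, the kinetochores couple chromosomes to spindle microtubules, the checkpoint holds anaphase back until all are attached, and the anaphase-promoting complex then marks securin and cyclin B for destruction. Blood stem cells are known for spending most of their time outside this cycle.

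The files count reads at a depth of 11.37 to 20.57 M reads per library, as recovered from the steps of the RPKM values. One read per kb equals 0.0486 to 0.088 RPKM. The members rested on few reads only in G0M+ cells: of 720 values, 14 came from fewer than 10 reads, 5 in DP and 9 in IMDP cells. Reads were not marked by molecule, so counting error is a lower limit of the error. The share of reads on listed features ranged from 30.8% to 33.6% for DP, from 32.1% to 34.1% for SP, from 25.9% to 31.1% for IMDP and from 32.6% to 37.1% for IMSP libraries. RPKM divides by the total and not by this share, and the median log2 change of all genes of G0M+ against G0M- cells was -0.02 under vehicle and -0.25 under imatinib, while that of imatinib against vehicle was -0.17 in G0M+ and 0.08 in G0M- cells. Library numbers are 7 to 12 for vehicle and 1 to 6 for imatinib, so treatment and library order cannot be told apart. RNA of sorted bulk cells also cannot tell fewer cells in mitosis from less RNA per cell.

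The genes behind the gate were measured in every group. Kit reached 23.6 ± 7.41 RPKM (SD, n = 3) among DP, 18.7 ± 3.23 among SP, 33.2 ± 8.82 among IMDP and 26.5 ± 3.84 among IMSP libraries, and Cd27 had means of 15.0, 13.7, 17.4 and 14.4 RPKM in the same order. Ly6a, which encodes Sca1, was at 11.7, 4.55, 19.0 and 6.63 RPKM and was higher in IMDP than in IMSP cells (log2 fold change 1.56, limma, adjusted p = 0.017). Cdkn1b had log2 changes of 0.01 under vehicle and -0.16 under imatinib between G0M+ and G0M- cells (limma, adjusted p = 0.991 and 0.607), and its reads cannot be separated from those of the marker. Summed over each list of other cell types, the libraries ranged from 70.7 to 2647 RPKM for 10 neutrophil genes, from 7.92 to 329 for 10 mast cell and basophil genes (Tpsab1 at 0 throughout), from 10.7 to 487 for 9 erythroid genes, from 8.29 to 131 for 7 megakaryocyte genes, from 3.25 to 37.6 for 7 macrophage genes and from 0 to 7.91 for 7 lymphoid genes (Ebf1 at 0 throughout). By group, the mast cell and basophil sum was 76.3 to 329 RPKM in DP and 10.5 to 23.0 in SP cells (2 of 7 tested genes higher), and 14.9 to 194 in IMDP and 7.92 to 24.4 in IMSP cells (1 higher). The erythroid sum was 201 to 269 RPKM for DP and 54.7 to 148 for SP libraries, without overlap, and 58.4 to 487 for IMDP and 10.7 to 72.9 for IMSP libraries, where 1 of 6 tested genes was higher. Of 5 tested macrophage genes 2 were higher in IMDP than in IMSP cells, with sums of 17.1 to 19.6 and 6.71 to 37.6 RPKM (DP 5.09 to 15.5, SP 3.25 to 8.67). Megakaryocyte sums were 31.1 to 131 for DP, 12.7 to 48.3 for SP, 20.1 to 120 for IMDP and 8.29 to 59.9 for IMSP libraries, and lymphoid sums 0.193 to 2.98, 0 to 0.189, 1.93 to 7.91 and 0.614 to 5.32. The neutrophil sum was 70.7 to 1425 RPKM for DP, 388 to 2647 for SP, 75.9 to 292 for IMDP and 520 to 2226 for IMSP libraries. Their part in the results was not tested.

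One library stood apart among the vehicle-treated G0M+ cells. DP1 had the highest level of its group for 59 of the 60 members, against 47.3% of all genes tested, and its members were at a median of 2.85 times the mean of the other two. The members summed to 378 RPKM in DP1, to 145 in DP2 and to 164 in DP3, whereas the SP libraries summed to 1001 to 1065 RPKM. DP1 also had the highest sum of the mast cell and basophil genes (329 RPKM against 80.1 and 76.3) and of the neutrophil genes (1425 against 70.7 and 251) among the DP libraries. The same held for the megakaryocyte (131 against 31.1 and 53.2) and macrophage genes (15.5 against 5.09 and 10.2). The erythroid sum was highest in DP2 (269) and the lymphoid sum in DP3 (2.98). Without DP1 the log2 change in DP against SP cells was lower for all 60 members (Pttg1 by the least, 0.53 in place of 0.54), no call was lost, and Ccnb2, Mad2l1 and Spc25 were called in addition (limma, adjusted p = 0.0203, 0.0154 and 0.0391). Libraries also differed under imatinib. IMDP1 was the highest of its group for 50 members (58.2% of all genes) and had mast cell and basophil and erythroid sums of 194 and 487 RPKM, against 45.6 and 14.9 and against 88.9 and 58.4 in IMDP2 and IMDP3. IMSP2 was the highest of its group for 52 members (43.5% of all genes). IMSP3 was the highest for 0 members, against 14.3% of all genes. It was the lowest for 56 members, and no share of all genes was taken for that.

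Promoters of Ube2c, Ccnb2, Cenpa and Pttg1, on which the results turn, are shown, with cyclin B1 and Bub3 for comparison. The sequences are those of RefSeq on GRCm38.p6, 250 bases before to 50 after the transcription start, read 5′ to 3′ along the gene's strand. Capitals mark TTTGAA and CCAAT on either strand, so TTCAAA and ATTGG also appear in capitals, and neighbouring matches may share bases, as in CCAATTGG of Ube2c. Ube2c (chr2:164769679-164769978, plus strand) had the largest difference of all members between IMDP and IMSP cells, and its window holds 1 TTTGAA and 6 CCAAT. Ccnb2 (chr9:70421505-70421804, minus strand) and Cenpa (chr5:30666636-30666935, plus strand) were the members that passed the threshold between IMDP and DP cells, with 2 and 1 matches to TTTGAA and 3 and 2 to CCAAT. Pttg1 (chr11:43425932-43426231, minus strand), which did not pass the threshold in any comparison, holds neither. In another annotation, GENCODE, the Pttg1 gene reaches base 43426251, so this window lies inside the gene and not before that start. Ccnb1 (chr13:100786437-100786736, minus strand) holds 2 CCAAT and no TTTGAA, and Bub3 (chr7:131560120-131560419, plus strand) holds 1 TTTGAA and 2 CCAAT.
Ube2c: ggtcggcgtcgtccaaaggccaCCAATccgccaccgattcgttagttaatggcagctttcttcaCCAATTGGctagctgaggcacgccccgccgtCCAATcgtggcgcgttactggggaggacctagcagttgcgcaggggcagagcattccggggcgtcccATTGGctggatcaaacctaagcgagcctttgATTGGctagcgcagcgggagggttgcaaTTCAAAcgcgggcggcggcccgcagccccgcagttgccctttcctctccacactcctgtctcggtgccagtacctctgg
Ccnb2: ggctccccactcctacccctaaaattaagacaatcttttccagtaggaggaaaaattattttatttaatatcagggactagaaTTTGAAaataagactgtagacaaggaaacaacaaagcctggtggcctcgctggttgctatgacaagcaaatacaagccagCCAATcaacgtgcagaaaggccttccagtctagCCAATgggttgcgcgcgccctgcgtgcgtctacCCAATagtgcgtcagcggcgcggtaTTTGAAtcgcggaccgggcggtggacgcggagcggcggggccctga
Cenpa: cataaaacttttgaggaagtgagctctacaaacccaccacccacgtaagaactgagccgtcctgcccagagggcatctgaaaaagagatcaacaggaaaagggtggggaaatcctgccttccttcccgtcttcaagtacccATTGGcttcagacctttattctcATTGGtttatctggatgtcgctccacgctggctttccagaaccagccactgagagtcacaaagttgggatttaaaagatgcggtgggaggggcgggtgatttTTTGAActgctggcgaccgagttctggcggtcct
Pttg1: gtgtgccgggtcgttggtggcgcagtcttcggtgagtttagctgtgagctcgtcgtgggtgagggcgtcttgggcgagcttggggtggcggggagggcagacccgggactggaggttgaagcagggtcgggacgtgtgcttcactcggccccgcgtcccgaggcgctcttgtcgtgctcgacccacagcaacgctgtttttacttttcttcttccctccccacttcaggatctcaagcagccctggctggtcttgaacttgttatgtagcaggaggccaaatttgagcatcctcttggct
Ccnb1: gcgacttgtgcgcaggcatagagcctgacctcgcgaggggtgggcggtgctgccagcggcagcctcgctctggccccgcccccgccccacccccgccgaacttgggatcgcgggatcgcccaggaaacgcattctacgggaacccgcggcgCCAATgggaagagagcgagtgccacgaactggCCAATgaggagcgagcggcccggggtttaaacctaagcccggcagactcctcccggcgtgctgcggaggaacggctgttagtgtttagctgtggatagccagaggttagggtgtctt
Bub3: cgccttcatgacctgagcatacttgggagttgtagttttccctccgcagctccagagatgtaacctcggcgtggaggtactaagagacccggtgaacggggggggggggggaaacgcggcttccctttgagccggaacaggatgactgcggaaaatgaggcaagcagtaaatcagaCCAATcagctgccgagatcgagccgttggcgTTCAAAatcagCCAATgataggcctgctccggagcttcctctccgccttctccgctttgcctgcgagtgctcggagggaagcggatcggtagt

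A promoter was listed for 50 of the 60 members. TTTGAA on either strand was present in 35 of them (70.0%), against 11.9% of 7839 tested genes and 18.1% of 27025 genes with a window of the same length. CCAAT was present in 38 (76.0%), against 39.3% and 37.9%, and both elements together in 30 (60%), against 5.1% and 7.1%. In IMDP against IMSP cells the median log2 change was -3.38 (range -5.84 to -1.39) in the 35 with a match and -2.70 (range -4.66 to -0.67) in the 15 without, and in DP against SP cells it was -2.52 (range -3.73 to -1.10) and -2.16 (range -3.67 to 0.54). Pttg1, Cenph, Cenpk and Mad2l1, of the 15 without a match, and Ccnb2 and Spc25, of the 35 with one, did not pass the threshold in DP against SP cells. Neither element was in the window of 7 members, of which Nusap1, Birc5, Nuf2, Ncaph and Plk4 passed as lower in both comparisons. Mad2l1 passed under imatinib and narrowly missed under vehicle (-1.33, limma, adjusted p = 0.0561), and Pttg1 passed in neither. These counts describe letters in a window and not the binding of a factor. The windows of Pttg1, Kif2c and Sgol2a, among others, lie away from the outermost gene start in GENCODE. Their counts may therefore miss a promoter in use.

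The first comparison asked how the 60 genes differed between G0M+ and G0M- cells under vehicle. In DP cells 54 of the 60 were lower than in SP cells and none was higher at an adjusted p under 0.05 (limma on log2(RPKM + 0.1), two-sided, adjusted over all genes), whereas 1.98% of all genes tested were lower. The members made up 27.1% of the 199 genes lower in DP cells. Their median log2 change was -2.49, against -0.02 for all genes. For 57 members all DP libraries lay below all SP libraries, which held for 12.7% of all genes. With 1 library left out the number called lay between 41 (without DP3) and 57 (without DP1), at 42 without SP1 and 43 without DP2, and the fit of these groups alone called 39. Of the 54 calls 33 held in every alternative and 21 were lost in 1 or more. The calls lost most often were those of Ect2 (7 of 23 alternatives), Ccna2 and Tpx2 (6 each) and Birc5, Ndc80 and Ttk (5 each). The 6 members that did not pass were Ccnb2, Mad2l1, Spc25, Cenph, Cenpk and Pttg1.

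Under imatinib the same comparison gave a larger count. In IMDP cells 59 of the 60 members were lower than in IMSP cells and none was higher, whereas 23.3% of all genes tested were lower, a share that depends on the scaling of the libraries. The median log2 change was -3.38, against -0.25 for all genes, and 37 members were lower by more than 8-fold, as were 1.12% of all genes. In DP against SP cells 14 members and 0.347% of all genes were past that size, and without DP1 these were 31 members and 0.735% of all genes. For all 60 members every IMDP library lay below every IMSP library, which held for 32.8% of all genes (58 members after scaling to an equal RPKM sum). Scaling to the median or to an equal RPKM sum, or limma-voom on the recovered reads, turned the split of all calls from 2342 lower and 239 higher to 925 and 634, 618 and 965, and 738 and 825. Under these settings 59, 57 and 57 members were called lower, with medians of -3.11, -2.98 and -3.17. The 54 members lower in DP cells were all among the 59 lower in IMDP cells.

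**Figure D1:**
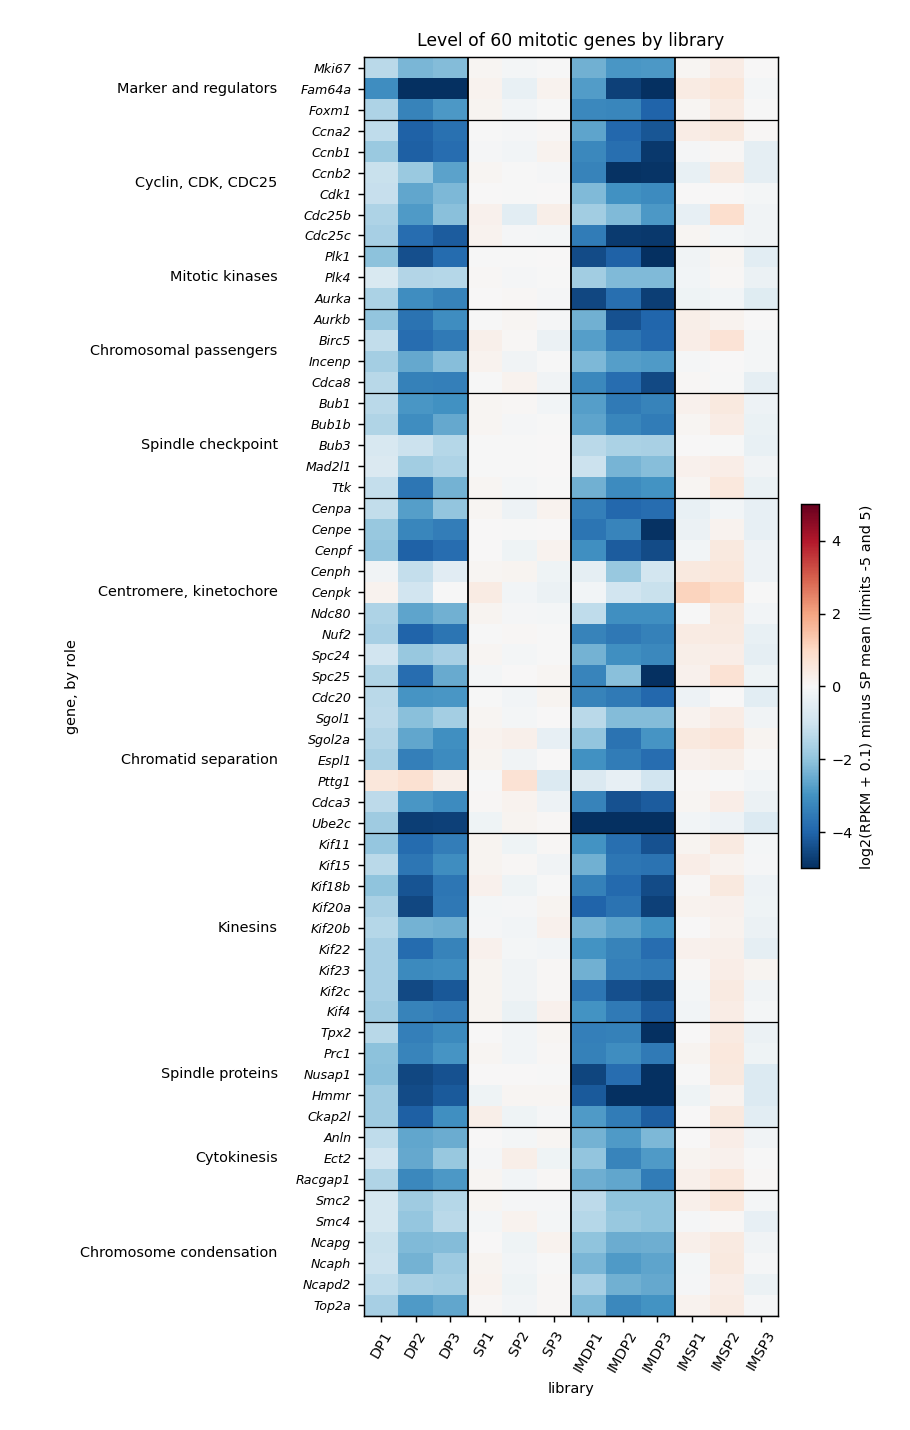
Level of the 60 genes (rows, grouped by role) in the 12 libraries (columns) as log2(RPKM + 0.1) minus the mean of the SP libraries, on a colour scale limited to -5 and 5. The DP and IMDP columns are blue for nearly every gene, DP1 is paler than DP2 and DP3, and Pttg1, Cenpk and Cenph differ least.

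**Figure D2:**
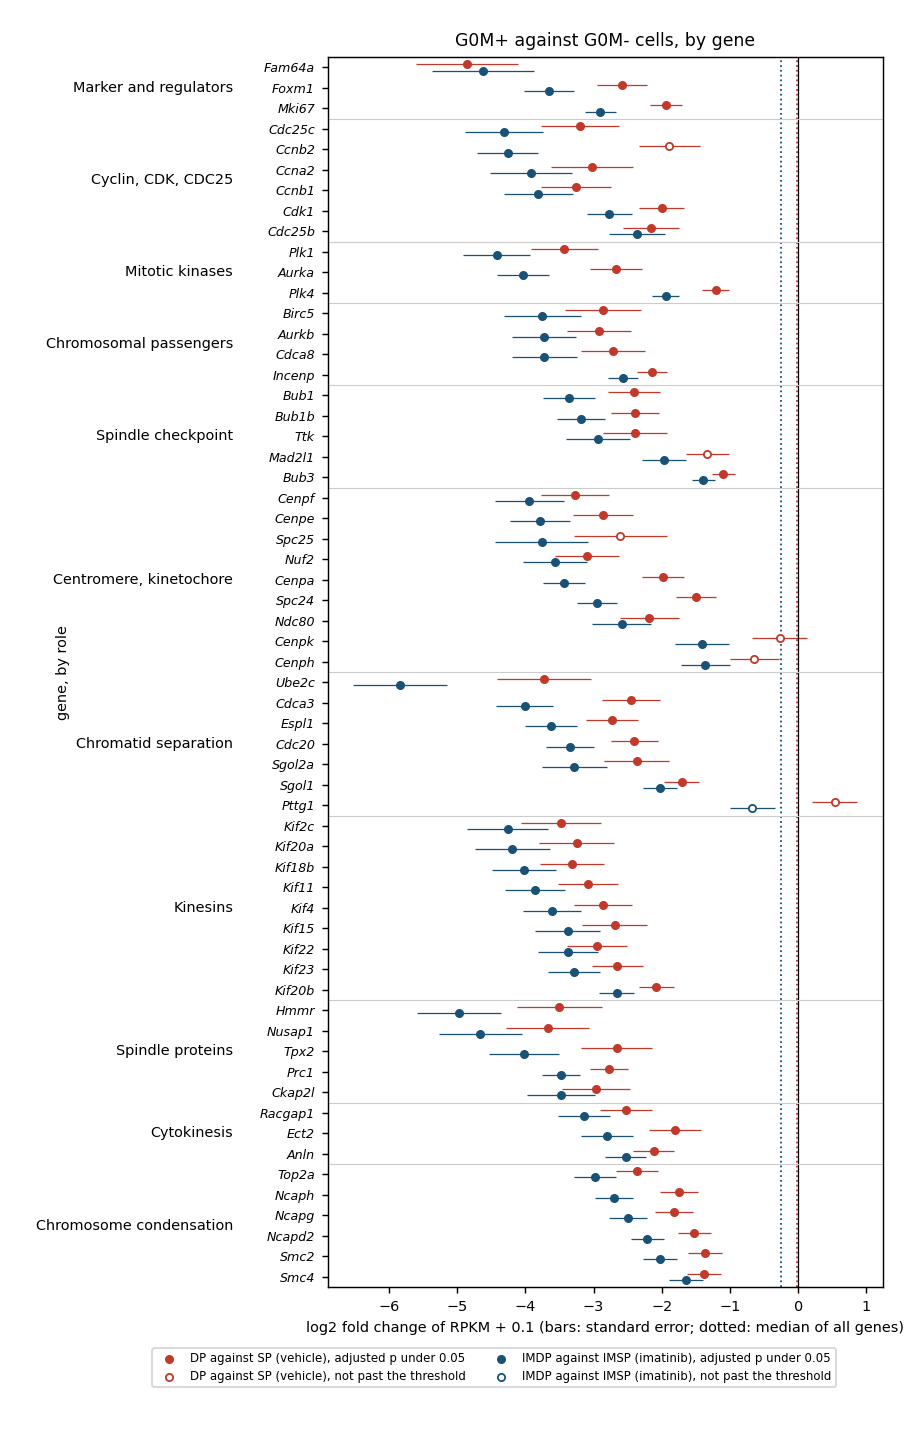
Log2 fold change of each gene (points, with standard error bars) in DP against SP cells (red) and in IMDP against IMSP cells (blue), 3 libraries a group. Filled points passed an adjusted p of 0.05 (54 and 59 of 60), and the dotted lines are the medians of all genes tested (-0.02 and -0.25).

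The regulators and the proliferation marker came first. Mki67 encodes Ki-67, which coats mitotic chromosomes and marks cycling cells. Its level was 21.2, 10.9 and 12 in DP cells, 57.7, 50.8 and 54 in SP cells, 10.1, 7.18 and 7.21 in IMDP cells and 58.3, 70.6 and 54.5 in IMSP cells (RPKM, replicates 1 to 3). The G0M+ libraries did not overlap with the G0M- libraries, and the log2 fold change (± SE) of G0M+ against G0M- cells was -1.94 ± 0.23 under vehicle and -2.90 ± 0.23 under imatinib (limma, adjusted p = 0.00263 and 3.6e-05). Foxm1, the factor that drives this program, was at 3.09, 0.834 and 1.18 in DP cells, 10.3, 8.52 and 9.05 in SP cells, 0.904, 0.878 and 0.487 in IMDP cells and 9.82, 12.4 and 9.04 in IMSP cells. It differed by -2.58 ± 0.37 under vehicle and -3.65 ± 0.37 under imatinib (limma, adjusted p = 0.00529 and 0.000153), again without overlap. Fam64a, now called Pimreg, encodes a mitotic regulator that binds the clathrin assembly protein CALM. It was measured at 0.828, 0.124 and 0 in DP cells, 8.88, 6.15 and 9.05 in SP cells, 1.05, 0.218 and 0.0765 in IMDP cells and 10.6, 11.7 and 7.45 in IMSP cells. No read fell on it in DP3, and 20 and 3 in DP1 and DP2, so the size of its change under vehicle depends on the pseudocount. With -4.86 ± 0.75 under vehicle and -4.62 ± 0.75 under imatinib it had the largest change of the 60 under vehicle in this fit (limma, adjusted p = 0.00597 and 0.00198).

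Of the cyclins, CDK1 and the CDC25 phosphatases that activate it, 5 of 6 were lower in DP than in SP cells and 6 of 6 in IMDP than in IMSP cells, with medians of -2.59 and -3.87. Ccna2, cyclin A2 of S and G2 phase, reached 11, 1.52 and 1.93 in DP cells, 26.5, 26 and 28 in SP cells, 4.21, 1.66 and 1.3 in IMDP cells and 34.6, 37.8 and 28.1 in IMSP cells. All G0M+ libraries lay below all G0M- libraries, DP1 being the highest of them, and the change was -3.02 ± 0.60 under vehicle and -3.92 ± 0.60 under imatinib (limma, adjusted p = 0.018 and 0.00134). Under vehicle the call was lost in the fit of these groups alone and without DP2, DP3, SP1, SP2 or SP3 (limma, adjusted p = 0.0651 to 0.0983), and without DP1 the change was -3.89. Ccnb1, cyclin B1, was at 10.1, 2.07 and 2.54 in DP cells, 36, 33.6 and 42.2 in SP cells, 3.84, 2.61 and 1.2 in IMDP cells and 35.6, 38.6 and 27.5 in IMSP cells. The differences were -3.26 ± 0.51 under vehicle and -3.81 ± 0.51 under imatinib (limma, adjusted p = 0.00641 and 0.000619), and without DP1 the first was -3.96. Ccnb2, the other main B-type cyclin, showed another pattern in vehicle-treated cells. It was measured at 12.9, 7.71 and 4.3 in DP cells, 29.9, 27.9 and 26.8 in SP cells, 2.71, 0.829 and 0.843 in IMDP cells and 21.6, 38.4 and 20.6 in IMSP cells. The DP libraries lay below the SP libraries without overlap, but the change of -1.89 ± 0.45 missed the threshold (limma, adjusted p = 0.0537) and passed it under 9 alternatives, among them the fit without DP1 (-2.27), whereas it was -4.26 ± 0.45 under imatinib (limma, adjusted p = 0.000169). The ratio of Ccnb2 to Ccnb1 per library was 1.27, 3.73 and 1.69 in DP cells, and 0.317 to 0.994 in the libraries of the other 3 groups.

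Cdk1, the kinase partner of these cyclins, was at 8.46, 2.99 and 3.83 in DP cells, 18.7, 18.3 and 19.1 in SP cells, 3.98, 2.23 and 2.02 in IMDP cells and 18.8, 19 and 17.6 in IMSP cells. The groups did not overlap and differed by -2.0 ± 0.33 under vehicle and -2.77 ± 0.33 under imatinib (limma, adjusted p = 0.00731 and 0.000264). Cdc25c had the largest difference of this group between IMDP and IMSP cells, at levels of 1.22, 0.2 and 0.132 in DP cells, 4.55, 3.9 and 3.75 in SP cells, 0.273, 0.0526 and 0.0462 in IMDP cells and 4.37, 3.82 and 3.6 in IMSP cells. Its change was -3.20 ± 0.57 under vehicle and -4.31 ± 0.57 under imatinib (limma, adjusted p = 0.00974 and 0.000533) and -3.98 under vehicle without DP1, with 12.7% of its exon bases shared with an antisense gene. The vehicle call was lost in the fit of DP and SP cells alone and without DP2 or SP1 (limma, adjusted p = 0.0516 to 0.057). Cdc25b had the smallest, with 2.35, 0.913 and 1.61 in DP cells, 8.35, 4.88 and 8.86 in SP cells, 2.04, 1.45 and 0.88 in IMDP cells and 5.35, 12.7 and 6.24 in IMSP cells. IMSP2 was higher than any other library, and the change was -2.16 ± 0.41 under vehicle and -2.36 ± 0.41 under imatinib (limma, adjusted p = 0.0148 and 0.00293). The vehicle call was lost without DP2, DP3, SP1 or SP3 (limma, adjusted p = 0.0572 to 0.0721).

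The kinases Plk1, Aurka and Plk4 were lower in both comparisons. Plk1, polo-like kinase 1, acts from mitotic entry to cytokinesis, and its level was 6, 1.1 and 1.65 in DP cells, 25, 25 and 25.4 in SP cells, 1.05, 1.43 and 0.507 in IMDP cells and 22.1, 27.1 and 17.2 in IMSP cells. The SP libraries agreed closely with each other, and the change was -3.43 ± 0.49 under vehicle and -4.42 ± 0.49 under imatinib (limma, adjusted p = 0.00529 and 0.000224). Aurka encodes the aurora A kinase of centrosomes and spindle poles and was at 6.24, 2.11 and 1.81 in DP cells, 19.2, 19.9 and 18.1 in SP cells, 0.716, 1.31 and 0.632 in IMDP cells and 16.5, 17.4 and 12.6 in IMSP cells. Here the 4 groups formed the order SP, IMSP, DP and IMDP with no overlap between neighbours, and the population changes were -2.67 ± 0.38 under vehicle and -4.03 ± 0.38 under imatinib (limma, adjusted p = 0.00529 and 0.000106). Plk4, the kinase that licenses centriole duplication, had a smaller difference, with the sum of its 2 copies at 6.23, 3.75 and 3.82 in DP cells, 10.9, 10.2 and 10.4 in SP cells, 3.04, 2.2 and 2.19 in IMDP cells and 9.6, 11 and 8.49 in IMSP cells. The change was -1.21 ± 0.20 under vehicle and -1.94 ± 0.20 under imatinib (limma, adjusted p = 0.00769 and 0.000169).

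The chromosomal passenger complex, which corrects faulty attachments and guides the cleavage furrow, is made by Aurkb, Birc5, Incenp and Cdca8, and all 4 were lower in both comparisons. Aurkb, its kinase, was at 6.01, 1.73 and 2.7 in DP cells, 23.3, 25.2 and 23 in SP cells, 4.41, 1.08 and 1.44 in IMDP cells and 29.3, 26.6 and 24.1 in IMSP cells. It differed by -2.92 ± 0.47 under vehicle and -3.73 ± 0.47 under imatinib (limma, adjusted p = 0.00682 and 0.000406). Birc5, survivin, was at 2.37, 0.318 and 0.396 in DP cells, 6.73, 5.94 and 4.61 in SP cells, 0.748, 0.374 and 0.276 in IMDP cells and 7.1, 9.24 and 5.38 in IMSP cells. The change was -2.86 ± 0.56 under vehicle and -3.75 ± 0.56 under imatinib (limma, adjusted p = 0.0175 and 0.00117), and the call in DP against SP cells was lost in the fit of these groups alone and in 4 of the fits with 1 library left out. Incenp, the scaffold of the complex, kept the highest share of its level, at 6.55, 3.56 and 4.85 in DP cells, 24.8, 19 and 21.6 in SP cells, 4.5, 3.13 and 2.95 in IMDP cells and 21, 22.1 and 20.1 in IMSP cells. Its change was -2.14 ± 0.22 under vehicle and -2.57 ± 0.22 under imatinib (limma, adjusted p = 0.00216 and 4.5e-05). The replicates of Incenp agreed more closely than those of Birc5, with a standard error of 0.22 against 0.56.

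Of the 5 spindle checkpoint genes, 4 were lower in DP and 5 in IMDP cells, with medians of -2.39 and -2.94. Bub1, a kinase of the checkpoint, had the largest difference under imatinib, at levels of 4, 1.27 and 1.18 in DP cells, 10.9, 10.5 and 9.29 in SP cells, 1.41, 0.79 and 0.911 in IMDP cells and 11.8, 14.2 and 8.58 in IMSP cells. The change was -2.41 ± 0.38 under vehicle and -3.36 ± 0.38 under imatinib (limma, adjusted p = 0.00673 and 0.000231). Bub3, the partner that carries Bub1 to kinetochores, had the smallest, with 16.7, 13.9 and 10.8 in DP cells, 28.9, 29 and 29.9 in SP cells, 11.5, 9.68 and 9.45 in IMDP cells and 29.3, 29 and 22.7 in IMSP cells. The G0M+ libraries lay between 9.45 and 16.7 RPKM and the G0M- libraries between 22.7 and 29.9, with a change of -1.10 ± 0.17 under vehicle and -1.39 ± 0.17 under imatinib (limma, adjusted p = 0.00597 and 0.000317). Mad2l1 (MAD2), which inhibits the anaphase-promoting complex, had log2 changes of -1.33 ± 0.32 under vehicle and -1.97 ± 0.32 under imatinib (limma, adjusted p = 0.0561 and 0.00205). Under vehicle it missed the threshold, and it was called under 10 of 23 alternatives, among them limma-voom and the fit without DP1 (-1.63).

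The 9 centromere and kinetochore genes spanned a wide range. Under imatinib all 9 were lower, with a median of -3.43, and under vehicle 6 of 9, with a median of -2.18. Cenpf, a large outer kinetochore protein of G2 and mitosis, was at 1.34, 0.243 and 0.31 in DP cells, 5.71, 4.83 and 6.28 in SP cells, 0.576, 0.215 and 0.153 in IMDP cells and 5.01, 7.83 and 4.67 in IMSP cells. Its change was -3.27 ± 0.50 under vehicle and -3.94 ± 0.50 under imatinib (limma, adjusted p = 0.00597 and 0.00043). Cenpa, the histone H3 variant that marks the centromere, was at 7.18, 2.37 and 4.25 in DP cells, 17.9, 13.9 and 18.9 in SP cells, 1.46, 1.01 and 1.11 in IMDP cells and 13.1, 15.4 and 12.7 in IMSP cells. G0M+ and G0M- cells differed by -1.98 ± 0.31 under vehicle and -3.43 ± 0.31 under imatinib (limma, adjusted p = 0.00612 and 7.46e-05), and each IMDP library was lower than each DP library. Cenph and Cenpk encode subunits of the constitutive centromere network, which stays on the centromere through the cell cycle. Cenph was at 3.51, 1.67 and 2.67 in DP cells, 4.21, 4.32 and 3.4 in SP cells, 2.89, 0.994 and 2.04 in IMDP cells and 5.65, 5.89 and 3.34 in IMSP cells, and DP and SP libraries overlapped. Its change was -0.64 ± 0.36 under vehicle and -1.36 ± 0.36 under imatinib (limma, adjusted p = 0.48 and 0.0195). Cenpk behaved alike, at -0.27 ± 0.40 under vehicle and -1.41 ± 0.40 under imatinib (limma, adjusted p = 0.785 and 0.0256), and its sign under vehicle turned to 0.08 without DP2. The 4 genes of the NDC80 complex, which holds microtubule ends, changed in IMDP against IMSP cells by -3.76 ± 0.68 (Spc25), -3.57 ± 0.47 (Nuf2), -2.95 ± 0.29 (Spc24) and -2.59 ± 0.43 (Ndc80). Under vehicle they changed by -2.61 ± 0.68, -3.10 ± 0.47, -1.50 ± 0.29 and -2.18 ± 0.43 in the same order. There Spc25 did not pass (limma, adjusted p = 0.0837), and the calls of Ndc80 and Spc24 were lost in 5 and 4 of 23 alternatives.

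The 7 genes grouped under chromatid separation held the members with the largest and the smallest difference under imatinib, and 6 of 7 were lower in each comparison (medians -2.40 and -3.35). Ube2c encodes the ubiquitin-conjugating enzyme of the anaphase-promoting complex, and was at 26.4, 3.36 and 3.48 in DP cells, 79.6, 101 and 94.8 in SP cells, 2.24, 1.44 and 0.444 in IMDP cells and 83.6, 76.8 and 57.2 in IMSP cells. The SP and IMSP libraries were all above 57, DP2 and DP3 were at 3.36 and 3.48 and the IMDP libraries at most 2.24. Its log2 change was -3.73 ± 0.69 under vehicle and -5.84 ± 0.69 under imatinib (limma, adjusted p = 0.012 and 0.000262). Under vehicle it was -4.70 without DP1, and the call was lost in the fit of these groups alone and without DP2, DP3 or SP2 (limma, adjusted p = 0.0523 to 0.0683). For this gene 22.8% of the exon bases are shared with the antisense gene Tnnc2. Cdc20, the activator of that complex in mitosis, was at 13.3, 4.26 and 4.39 in DP cells, 33.2, 31.1 and 37.3 in SP cells, 3.25, 2.79 and 2.12 in IMDP cells and 28.1, 34.1 and 23.6 in IMSP cells. It differed by -2.40 ± 0.35 under vehicle and -3.35 ± 0.35 under imatinib (limma, adjusted p = 0.0056 and 0.000169). The ratio of Ube2c to Cdc20 was 2.25 to 3.26 in the 6 G0M- libraries, 1.99 in DP1, and 0.21 to 0.793 in the other 5 G0M+ libraries. Pttg1 encodes securin, the inhibitor of separase, and was low in every group, at 1.84, 2.14 and 1.49 in DP cells, 1.18, 2.04 and 0.715 in SP cells, 0.702, 0.876 and 0.569 in IMDP cells and 1.26, 1.2 and 1.09 in IMSP cells. DP and SP libraries overlapped and the IMDP libraries lay below the IMSP libraries, with changes of 0.54 ± 0.33 under vehicle and -0.67 ± 0.33 under imatinib (limma, adjusted p = 0.508 and 0.152). Espl1, which encodes separase itself, changed by -2.73 ± 0.38 under vehicle and -3.62 ± 0.38 under imatinib (limma, adjusted p = 0.00529 and 0.000169).

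**Figure D3:**
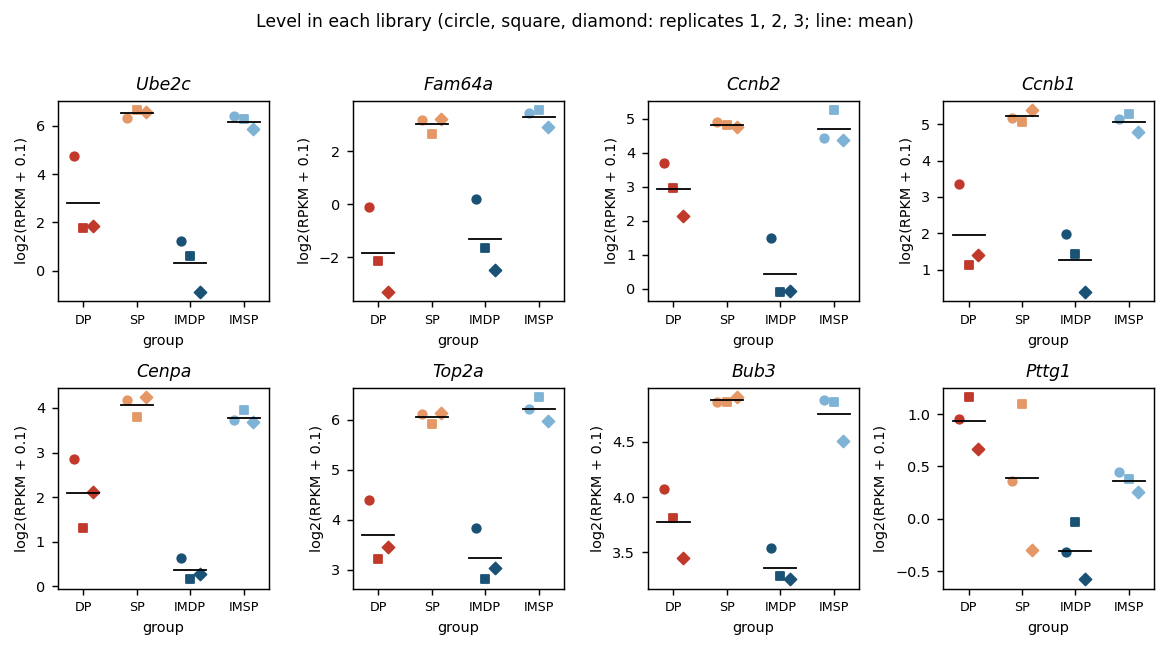
Level of 8 genes in each library as log2(RPKM + 0.1), by group, with replicates 1 to 3 as circle, square and diamond and the group mean as a line; each panel has its own vertical range. Ube2c and Fam64a span the widest range, Ccnb2 and Cenpa are lower in each IMDP than in each DP library, and the DP and SP libraries of Pttg1 overlap.

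All 9 kinesins, the motors that separate, slide and depolymerise spindle microtubules, were lower in both comparisons, with medians of -2.95 and -3.61. Kif2c, which removes tubulin at kinetochores, had the largest difference under imatinib, at levels of 2.48, 0.254 and 0.331 in DP cells, 8.78, 7.09 and 8.41 in SP cells, 0.569, 0.288 and 0.235 in IMDP cells and 7.44, 11.1 and 7.2 in IMSP cells. It changed by -3.48 ± 0.59 under vehicle and -4.26 ± 0.59 under imatinib (limma, adjusted p = 0.00774 and 0.000708). Kif20b had the smallest, with 2.95, 1.5 and 1.42 in DP cells, 7.72, 7.44 and 9.31 in SP cells, 1.5, 1.19 and 0.905 in IMDP cells and 8.12, 9.23 and 6.69 in IMSP cells. Its G0M+ libraries reached at most 2.95 RPKM and its G0M- libraries were at least 6.69, and it changed by -2.08 ± 0.26 under vehicle and -2.66 ± 0.26 under imatinib (limma, adjusted p = 0.00384 and 0.000138). Both copies of Kif11, the motor that keeps spindle poles apart, were alike, at 13.1 and 13.3 RPKM in SP and 1.91 and 1.71 in DP cells. For Kif20a 29.3% and for Kif4 15.1% of the exon bases are shared with antisense genes, and whether the counting used the strand is not stated.

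The 5 other spindle proteins were all lower in both comparisons, with medians of -2.97 and -4.02. Hmmr, which organises microtubules at the poles with TPX2, was at 4.74, 0.646 and 0.803 in DP cells, 14.5, 18 and 17.6 in SP cells, 0.802, 0.306 and 0.149 in IMDP cells and 14.3, 18.6 and 10.3 in IMSP cells. The change was -3.50 ± 0.62 under vehicle and -4.97 ± 0.62 under imatinib (limma, adjusted p = 0.00965 and 0.000387). Ckap2l had the smallest difference under imatinib, at 3.78, 0.682 and 1.48 in DP cells, 16.1, 11.2 and 12.7 in SP cells, 1.75, 1.07 and 0.666 in IMDP cells and 13.3, 18.6 and 9 in IMSP cells. That came to -2.97 ± 0.50 under vehicle and -3.48 ± 0.50 under imatinib (limma, adjusted p = 0.00768 and 0.000897). Nusap1, which bundles microtubules near chromosomes, changed by -3.67 ± 0.61 under vehicle and -4.66 ± 0.61 under imatinib (limma, adjusted p = 0.00748 and 0.0005).

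The 3 cytokinesis genes were lower in both comparisons, with medians of -2.12 and -2.80. Racgap1, part of the centralspindlin complex at the cell's midzone, was at 7.96, 2.34 and 3.04 in DP cells, 23.9, 20.4 and 23.6 in SP cells, 4.04, 3.64 and 1.89 in IMDP cells and 26.9, 32.5 and 23.6 in IMSP cells. It changed by -2.52 ± 0.38 under vehicle and -3.14 ± 0.38 under imatinib (limma, adjusted p = 0.00597 and 0.000354). Anln, anillin of the contractile ring, was at 3.3, 1.25 and 1.37 in DP cells, 8.28, 7.5 and 8.56 in SP cells, 1.49, 1.04 and 1.62 in IMDP cells and 8.18, 10.1 and 7.11 in IMSP cells. Its change was -2.12 ± 0.30 under vehicle and -2.53 ± 0.30 under imatinib (limma, adjusted p = 0.00529 and 0.000304). Ect2, the exchange factor that activates RhoA at the furrow, changed by -1.80 ± 0.38 under vehicle and -2.80 ± 0.38 under imatinib (limma, adjusted p = 0.0277 and 0.000688). Its call under vehicle was lost without a filter on low values, in the fit of these groups alone and without DP2, DP3, SP1, SP2 or SP3 (limma, adjusted p = 0.0624 to 0.128).

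Genes of chromosome condensation had the smallest median of the role groups in both comparisons, -1.63 and -2.35, although all 6 passed the threshold in each. Top2a, the topoisomerase that untangles sister chromatids, was one of the most abundant members, at 21, 9.23 and 10.9 in DP cells, 69.2, 60 and 69.6 in SP cells, 14.2, 6.92 and 8.17 in IMDP cells and 74.2, 87.4 and 63 in IMSP cells. It changed by -2.36 ± 0.31 under vehicle and -2.98 ± 0.31 under imatinib (limma, adjusted p = 0.00417 and 0.000159). Smc4, a core subunit of both condensins, had the smallest difference of the group under imatinib, at 8.86, 4.27 and 6.31 in DP cells, 15.4, 18.5 and 15.4 in SP cells, 6.02, 4.33 and 4.04 in IMDP cells and 15.9, 17.1 and 12.2 in IMSP cells. The DP and IMDP libraries lay below those of SP and IMSP cells, and the change was -1.38 ± 0.25 under vehicle and -1.64 ± 0.25 under imatinib (limma, adjusted p = 0.00974 and 0.00123). Its partner Smc2 changed by -1.36 ± 0.25 under vehicle and -2.02 ± 0.25 under imatinib, and the condensin I subunits Ncaph, Ncapg and Ncapd2 by -2.70 ± 0.28, -2.50 ± 0.28 and -2.21 ± 0.24 in IMDP against IMSP cells.

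The members not yet given by value were lower in both comparisons. They were the passenger gene Cdca8 (borealin), the checkpoint kinase genes Bub1b and Ttk, the kinetochore motor gene Cenpe, Cdca3, the cohesin guardians Sgol1 and Sgol2a, the kinesins Kif11, Kif15, Kif18b, Kif20a, Kif22, Kif23 and Kif4, the spindle assembly factor gene Tpx2 and the midzone bundler gene Prc1. Their log2 changes ran from -3.31 (Kif18b) to -1.71 (Sgol1) under vehicle and from -4.19 (Kif20a) to -2.03 (Sgol1) under imatinib. Sgol2a shares 35.0% of its exon bases with an antisense gene.

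Libraries with neighbouring numbers deviated together, so the population difference was also taken within each such pair. In DP1 minus SP2, DP2 minus SP3 and DP3 minus SP1, 59 of the 60 members were lower in each pair, with median log2 differences of -1.44, -3.18 and -3.04, against 48.1%, 47.9% and 58.5% of all genes lower. The exception was Cenpk in the pair of DP1 and Pttg1 in the other 2 pairs. In the 3 imatinib pairs all 60 were lower, with medians of -2.87, -3.65 and -3.41, against 62.4% to 76.6% of all genes. With these pairs as a block, 57 and 59 members were called lower in DP and in IMDP cells, as were 5.56% and 35.9% of all genes in the same fits.

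The next question was whether imatinib changed the members within G0M+ cells. Between IMDP and DP cells 2 of the 60 were lower (Ccnb2 and Cenpa) and none was higher at an adjusted p under 0.05, whereas 0.338% of all genes tested were lower. Ccnb2 changed by -2.50 ± 0.45 and Cenpa by -1.74 ± 0.31 (limma, adjusted p = 0.0467 for each), on the library values given above, with no overlap between IMDP and DP libraries for either. Each call held in 6 of 22 alternatives, over which the adjusted p ran from 0.0172 to 0.174 for Ccnb2 and from 0.025 to 0.161 for Cenpa. The call on each was lost without DP1, where the changes were -2.12 and -1.35. The median change of the members was -0.67 against -0.17 for all genes, and without DP1 it was -0.21. For 10 members (16.7%) all IMDP libraries lay below all DP libraries, a share close to the 19.0% of all genes: Mki67, Ccnb2, Cdc20, Ube2c, Cdca3, Pttg1, Plk4, Aurka, Cenpa and Spc24. An unadjusted p under 0.05 was reached by 22 members (36.7%) and by 20.5% of all genes. The log2 change of Ube2c was -2.46 ± 0.69 and that of Pttg1 -1.24 ± 0.33, neither past the threshold (limma, adjusted p = 0.101 and 0.0926).

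In G0M- cells no member passed the threshold between IMSP and SP cells, and 0.0% of all genes were called lower. No member had an unadjusted p under 0.05 in limma, against 8.39% of all genes, and limma-voom and every other alternative also called 0. The members' changes ran from -0.35 (Ube2c) to 0.67 (Cenpk) with a median of 0.06, beside 0.08 for all genes, so all 60 estimates were within a factor of 2. The summed level of the members was 1039 ± 33.8 RPKM (SD, n = 3) in SP and 1059 ± 192 in IMSP cells. Ccna2 was higher in all IMSP libraries than in all SP libraries (28.1 to 37.8 against 26.0 to 28 RPKM) and Aurka lower (12.6 to 17.4 against 18.1 to 19.9), whereas 11.1% and 2.72% of all genes were separated in these directions. After median scaling Ccna2 was no longer above in all libraries. The standard errors of the members' changes were 0.17 to 0.75, so a 2-fold change of a single member with a large error could not have been detected.

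**Figure D4:**
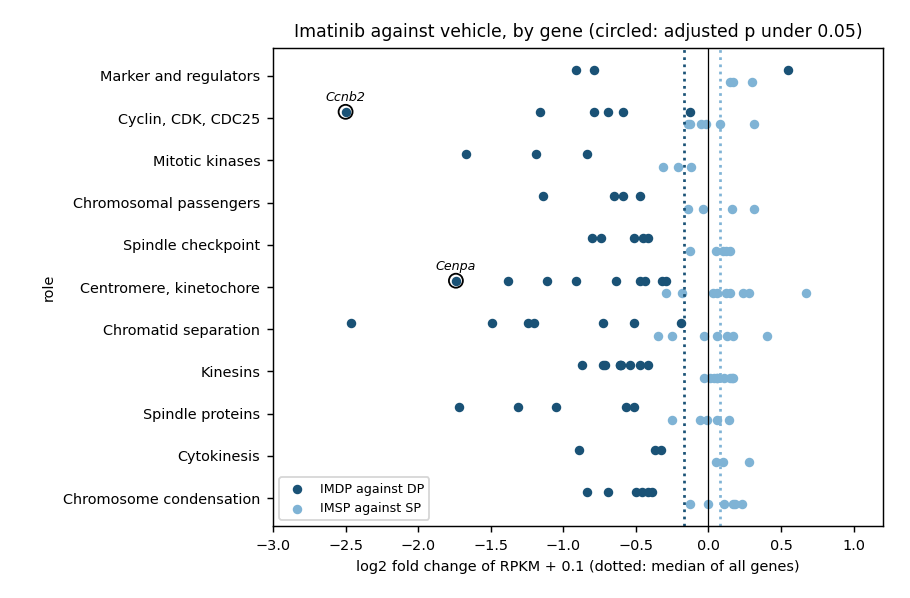
Log2 fold change of each gene (points) under imatinib against vehicle in G0M+ cells (IMDP against DP, dark blue) and in G0M- cells (IMSP against SP, light blue), by role. The genes with an adjusted p under 0.05 are circled (Ccnb2 and Cenpa), and the dotted lines are the medians of all genes (-0.17 and 0.08).

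Whether the population difference itself changed with imatinib was tested as an interaction, (IMDP minus IMSP) minus (DP minus SP). No member passed (limma, lowest adjusted p = 0.534), nor did any other gene, and 9 members and 9.3% of all genes had an unadjusted p under 0.05. The estimate was negative for 59 of the 60 members, Fam64a being the exception, and for 77.6% of all genes, with medians of -0.78 and -0.25. After median scaling, an equal RPKM sum or voom the medians were -0.55, -0.45 and -0.60 for the members and -0.02, 0.10 and 0.03 for all genes. The largest estimates were those of Ccnb2 (-2.37) and Ube2c (-2.11). Without DP1 the median of the members was -0.33. A larger difference under imatinib was thus not detected for any single member with 3 libraries a group.

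Other genes of the same pathway were taken from lists compiled by hand. Their calls under imatinib depended on the scaling of the libraries, so the counts after median scaling, after an equal RPKM sum and with voom follow in this order. Of all genes tested 1.98% were lower in DP cells and 23.3% in IMDP cells. Under these settings the share in IMDP cells was 9.18%, 6.14% and 7.33%. These shares are the background for the counts. Of 65 further mitotic genes 39 were lower in DP cells (median -1.37) and 62 in IMDP cells (median -2.07, 56, 53 and 53 after rescaling), and none was higher. Among them Aspm, which focuses spindle poles, changed by -3.13 and -4.45 and the kinase gene Nek2 by -2.80 and -4.20, whereas the kinetochore genes Zwint (0.08 and -0.41) and Cenpt (-0.14 and -0.42) passed the threshold in neither comparison. Of 14 tested genes of the anaphase-promoting complex and its activator Fzr1, 1 was lower in DP and 8 in IMDP cells (4, 1 and 4 after rescaling), with medians of -0.29 and -0.62. The one in DP cells was Fzr1 (-1.36, limma, adjusted p = 0.00529). In IMDP cells Fzr1 changed by -1.38 and the subunit gene Cdc23 by -0.85, while Anapc16 (-0.05) and Anapc7 (-0.35) did not pass.

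Of 10 cohesin genes, which hold sister chromatids together, 1 was lower in DP cells and 7 in IMDP cells (2, 1 and 2 after rescaling), with medians of -0.16 and -0.45. Rad21, the subunit that separase cuts, was the one called in both (-0.90 and -1.45, limma, adjusted p = 0.0394 and 0.000781), Smc3 was lower in IMDP cells by 0.68, and the loader genes Mau2 (0.07) and Nipbl (-0.18) did not pass there, although Mau2 was called higher at an equal RPKM sum and with voom. The 8 augmin genes, which nucleate microtubules within the spindle, had 0 and 7 called lower (5, 4 and 3 after rescaling), with medians of -0.29 and -0.97. Haus4 (-1.12) and Haus8 (-1.07) differed most in IMDP cells and Haus2 (-0.39) and Haus6 (-0.67) least. No augmin gene was called in DP cells by limma, where 2 had an unadjusted p under 0.05, and Haus5 was called after each rescaling.

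The 5 tested genes of the MuvB core, common to the activating and the repressing complex, had 0 lower in DP cells and 3 in IMDP cells (3, 1 and 3 after rescaling), with medians of -0.17 and -0.68. Lin54, the subunit that contacts TTTGAA, changed by -1.10 and Lin9 by -1.03 in IMDP against IMSP cells, and Lin37 (-0.35) and Lin52 (-0.54) did not pass. In DP cells 1 of the 5 had an unadjusted p under 0.05, and 0 were called by limma-voom. DNA replication genes act in S phase, and under vehicle their median was -0.01, beside -0.02 for all genes. Of 40 such genes 1 was lower in DP cells (beside 1.98% of all genes), Tk1 (-0.75, limma, adjusted p = 0.0229). In IMDP cells 29 were lower (20, 13 and 17 after rescaling), with a median of -0.76, Tk1 (-1.86) and Rrm2 (-1.72) differing most and Chaf1b (-0.06) and Mcm2 (-0.26) least. Under vehicle the medians were therefore -2.49 for the 60 members and -0.01 for the replication genes, and no test was made of the difference between the lists.

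**Figure D5:**
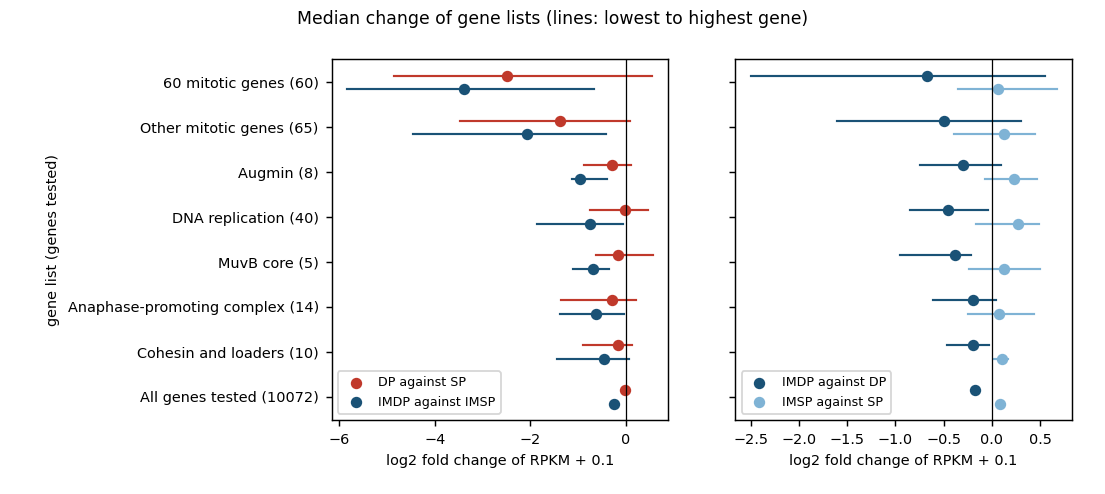
Median log2 fold change of the 60 genes, of 6 lists of related genes and of all genes tested (points), with lines from the lowest to the highest gene of each list and the number of genes tested in brackets. Left, G0M+ against G0M- cells, with medians of -2.49 and -3.38 for the 60 genes; right, imatinib against vehicle, with medians of -0.67 and 0.06.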

How the data were processed

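RNA-seq was done on 12 libraries of 100 sorted cells, 3 in each of 4 groups. The authors deposited RPKM per feature for each library, and their submission notes name edgeR, GRCm38 and mm10. The sources differ on the aligner and counter, and the use of strand in counting is not given in the sources used here. Numbered copies of a gene were summed, and the 10072 genes that reached 1 RPKM in 3 or more libraries were fitted by limma 3.58.1 (R 4.3.3, trend) on log2(RPKM + 0.1), with 4 group means, two-sided tests and Benjamini-Hochberg adjustment over all genes (threshold 0.05). Fold changes on this scale understate those of low genes. Whole reads were recovered from the RPKM steps for all 17735 features above 0 (tolerance 0.02 reads) and served for limma-voom as an alternative. On simulated data for DP against SP cells, 89% of 200 genes changed 4-fold among 10072 were recovered, and 7.29% of calls were false. Whether these rates hold for genes that deviate together between libraries, as the members did in DP1, was not tested. Members and lists were chosen with earlier results of these data known. Genes were named by role: the largest and smallest change under imatinib, fixed core genes and any called under imatinib. Mad2l1, Espl1, Nusap1, Ect2, Smc2, the condensin and the NDC80 genes were added after their values were seen. Promoters came from RefSeq (GRCm38.p6). Same-numbered DP and SP libraries did not deviate together (r -0.298 to -0.098), whereas IMDP and IMSP libraries did (0.429 to 0.655), as did the vehicle libraries next to each other in library number (0.495 to 0.519). Figures were drawn with matplotlib 3.10.9.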

Additional observations from a re-analysis of the deposited data

How the results depend on the processing

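Against a spread of 0.53 between replicates, the median change of the members moved in DP against SP cells to -1.95 with a pseudocount of 1 and in IMDP against IMSP cells to -2.67. With 1 library left out, the medians ran from -3.03 (without DP1) to -2.19 in DP against SP cells, from -3.60 to -3.18 in IMDP against IMSP cells, from -1.05 to -0.21 in IMDP against DP cells, from -0.07 to 0.23 in IMSP against SP cells and from -1.15 to -0.33 for the interaction. The members called ran from 41 to 57, from 57 to 59 and from 0 to 5 (5 without IMDP1) in the first 3 of these comparisons, and stayed at 0 in the other 2. In the same fits 1.09% to 2.37%, 8.46% to 27.8% and 0% to 1.86% (1.86% without IMDP1) of all genes were called lower in the first 3. The 2 calls in IMDP against DP cells became 0 with a pseudocount of 1, no filter or only the 2 groups compared. They also became 0 with median scaling, an equal RPKM sum or voom. With a filter of 5 RPKM there were 5, beside 2.87% of all genes called lower. Members with separate libraries in IMSP against SP cells rose from 2 (1 higher, 1 lower) to 6 under median scaling, all of them lower. No share of all genes is given for that count. It was an alternative chosen after seeing the data, as were the rescaled counts of the other lists. Cenpk in DP against SP cells reversed to 0.08 without DP2, and the other fits with 1 library left out reached -0.50. Its call and that of Cenph in IMDP against IMSP cells were lost at an equal RPKM sum and with voom, and also without IMDP2, IMSP1 or IMSP2 for both and without IMDP3 for Cenpk (limma, adjusted p up to 0.0809 for Cenph and 0.114 for Cenpk). With the replicate number as a block, 56 members were called between G0M+ and G0M- cells under vehicle and 59 under imatinib. The shares of all genes called lower were 2.12% and 25.4%. By imatinib 3 members were called in G0M+ cells, beside 0.357% of all genes called lower. None was called by imatinib in G0M- cells (0) or for the interaction (0). Ccnb2 and Mad2l1 then passed under vehicle (limma, adjusted p = 0.0316 and 0.0266). The causes were not tested. Depth limits members under 10 reads, all in G0M+ cells.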
